A study of Homo sapiens with 9 samples.

Results

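The genes described here are 9 of the Ras switch: the GTPases HRAS, NRAS and RRAS, the exchange factors SOS1, SOS2 and RASGRP1, and the GTPase activators RASA1, NF1 and RASAL2. They were taken by name from a count table of 27676 genes, and all 9 had a row. Where a gene had several RefSeq transcript rows, the row with the highest total over the 9 libraries stood for it. Those totals ran from 416 counts for RRAS to 20070 counts for NF1. The names were chosen by hand with the differences between these groups already known, so how many of them changed, and their tests, describe this set and support nothing beyond it.

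Poly(A)-enriched RNA was sequenced from Caco-2 cells, an established line from a human colon adenocarcinoma that serves as an enterocyte model. Cells were kept in medium with lipid-depleted serum, and every group received 10 µM lovastatin, a statin, for 48 h. There were 3 libraries with lovastatin and 10 µM SGA360, 3 with lovastatin and 10 µM SGA315, and 3 with lovastatin alone. SGA360 and SGA315 are code names of compounds labelled as selective ligands of AHR, the aryl hydrocarbon receptor, which acts as a transcription factor when bound. No library came from cells without lovastatin, so the effect of lovastatin itself cannot be read from these data. Whether replicates were separate cultures is not stated in the labels, and the p-values then reflect only how far these libraries differ, which may be technical.

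Ras proteins are membrane-bound switches that are active with GTP and inactive with GDP. Exchange factors such as SOS and RASGRP proteins load them with GTP, and GTPase activators such as RASA1 and neurofibromin speed the hydrolysis that turns them off. SOS proteins are brought to receptor tyrosine kinases by the adaptor GRB2, whereas RASGRP proteins respond to diacylglycerol. In the colon epithelium the Ras and ERK pathway carries growth signals, and Ras proteins need a prenyl lipid from the mevalonate pathway, which statins block upstream, to reach the membrane.

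The sequence just upstream of the 3 exchange factor genes is shown because, by each gene's largest change in any of the 3 comparisons, these genes differed most among the 9. RefSeq promoters of build GRCh38.p14 were matched by symbol for 8 of the 9 genes, and 250 bases before the annotated start are printed for each. Capitals mark GCGTG, the core of the xenobiotic response element that AHR binds, searched on both strands, so that a match on the other strand reads CACGC. SOS1 has 2 annotated starts, and both are given, on the minus strand at chr2:39124869-39125118 and chr2:39121052-39121301. SOS2 lies on the minus strand at chr14:50231579-50231828 and RASGRP1 on the minus strand at chr15:38564815-38565064.
SOS1, first start: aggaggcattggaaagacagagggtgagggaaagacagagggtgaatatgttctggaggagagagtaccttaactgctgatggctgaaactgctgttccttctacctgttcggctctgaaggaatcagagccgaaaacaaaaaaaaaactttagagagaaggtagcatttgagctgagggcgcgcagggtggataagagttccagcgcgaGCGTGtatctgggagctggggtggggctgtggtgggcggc
SOS1, second start: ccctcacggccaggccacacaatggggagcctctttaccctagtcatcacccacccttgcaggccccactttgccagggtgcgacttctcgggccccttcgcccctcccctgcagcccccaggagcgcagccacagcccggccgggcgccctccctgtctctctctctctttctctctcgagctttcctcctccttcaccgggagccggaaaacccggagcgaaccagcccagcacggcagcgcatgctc
SOS2: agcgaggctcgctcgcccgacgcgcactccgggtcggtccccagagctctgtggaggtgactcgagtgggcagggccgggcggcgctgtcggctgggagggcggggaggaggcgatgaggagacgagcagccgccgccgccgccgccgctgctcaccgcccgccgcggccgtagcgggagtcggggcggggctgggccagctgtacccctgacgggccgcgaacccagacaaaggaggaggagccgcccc
RASGRP1: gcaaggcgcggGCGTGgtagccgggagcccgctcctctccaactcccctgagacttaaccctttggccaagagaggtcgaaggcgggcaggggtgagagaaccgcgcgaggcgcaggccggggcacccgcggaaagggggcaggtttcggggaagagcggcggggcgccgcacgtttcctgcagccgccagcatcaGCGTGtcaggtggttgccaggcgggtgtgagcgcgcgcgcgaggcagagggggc
RASGRP1 held 2 matches, which began at −239 and −54 relative to its start. SOS1 held 1 match upstream of one start and 0 upstream of the other, and SOS2 held 0. Of 35116 human promoters of the same length, 32.2% held the core. Among all 10 promoters of the 8 genes, 4 held it, those of HRAS, RASA1 and RASGRP1 and 1 of SOS1. The longer form TNGCGTG, which contains the core, was found upstream of RASA1 and in 4.52% of all promoters. These are matches of letters, and binding was not measured.

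Depth over 1 row per gene was 12333757 to 16869704 counts in SGA360 libraries, 12885119 to 14736566 in SGA315 libraries and 14125548 to 16298779 with lovastatin alone. CYP1A1, a classical AHR target, averaged 5.45 ± 0.402 CPM (counts per unit of library size, scaled by the TMM method) with SGA360, 1053 ± 29.9 CPM with SGA315 and 44.6 ± 3.82 CPM with lovastatin alone (SD, n = 3 each). Of 10 intestinal epithelial markers 9 passed the filter on low counts, and CDX1 was at 0 in every library. Their summed level was 6106 to 6545 CPM with SGA360, 4754 to 4864 CPM with SGA315 and 8432 to 8532 CPM with lovastatin alone. The keratin gene KRT8 made up much of this sum, at 2453 to 2749 CPM with SGA360, 1427 to 1545 CPM with SGA315 and 3461 to 3517 CPM with lovastatin alone. The intestinal transcription factor gene CDX2 went the other way, at 79.6 to 81.1 CPM with SGA360, 116.2 to 118.1 CPM with SGA315 and 75.1 to 76.8 CPM with lovastatin alone. HNF4A, another such factor, had 262.2 to 279.9 CPM with SGA360, 431.3 to 450.1 CPM with SGA315 and 454.6 to 460.9 CPM with lovastatin alone. Defining leukocyte genes were near 0: CD3E had 7 counts in all 9 libraries together and PTPRC 37. Of the whole list of 6 leukocyte genes 2 passed the filter, CD68 and LYZ, and its sum was 9.68 to 10.2 CPM with SGA360, 10.9 to 12.8 CPM with SGA315 and 14.5 to 16.4 CPM with lovastatin alone. The fibroblast list (1 of 5 passed) summed to 8.24 to 8.57, 6.06 to 8.09 and 8.29 to 10.3 CPM in the same order of groups, and the endothelial list (2 of 3 passed) to 1.68 to 2.52, 2.5 to 3.09 and 1.75 to 3.08 CPM. Nuclear ribosomal RNA was read from 1 row only. That row made up 0.43 to 0.66% of counts in SGA360 libraries, 0.235 to 0.317% in SGA315 libraries and 0.521 to 0.725% with lovastatin alone. The part of these markers and of ribosomal RNA in the differences below was not tested. Fewer cells of a type and less RNA per cell cannot be told apart in bulk samples.

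All 9 genes passed the filter. With SGA360 against lovastatin alone, 4 of them were higher (SOS2, RASGRP1, RASA1 and RASAL2) and 3 lower (HRAS, SOS1 and NF1). With SGA315 against lovastatin alone, 4 were higher (SOS1, SOS2, RASGRP1 and RASA1) and 3 lower (HRAS, RRAS and NF1). A gene was called at a Benjamini-Hochberg adjusted p under 0.05 in edgeR's quasi-likelihood test over 14677 genes. Over all these genes 62.7% were called with SGA360 (31.4% higher, 31.4% lower) and 69.2% with SGA315 (36% higher, 33.2% lower). With scaling to library totals in place of TMM, the calls over all genes were 6464 higher and 3138 lower with SGA360 and 6926 and 3627 with SGA315, against 4603 and 4602, and 5285 and 4873. Calls are therefore common in these data, and 7 of 9 in each comparison is near that background. The libraries of the groups compared did not overlap for 7 of the 9 genes with SGA360 and 7 with SGA315, against 66.3% and 70.3% of all genes tested. The median log2 fold change of the 9 genes was −0.01 with SGA360 and 0.02 with SGA315, against 0.02 and 0.04 over all genes tested. The median size of the change was 0.18 with SGA360 and 0.42 with SGA315, against 0.25 and 0.31 over all genes tested.

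**Figure D1:**
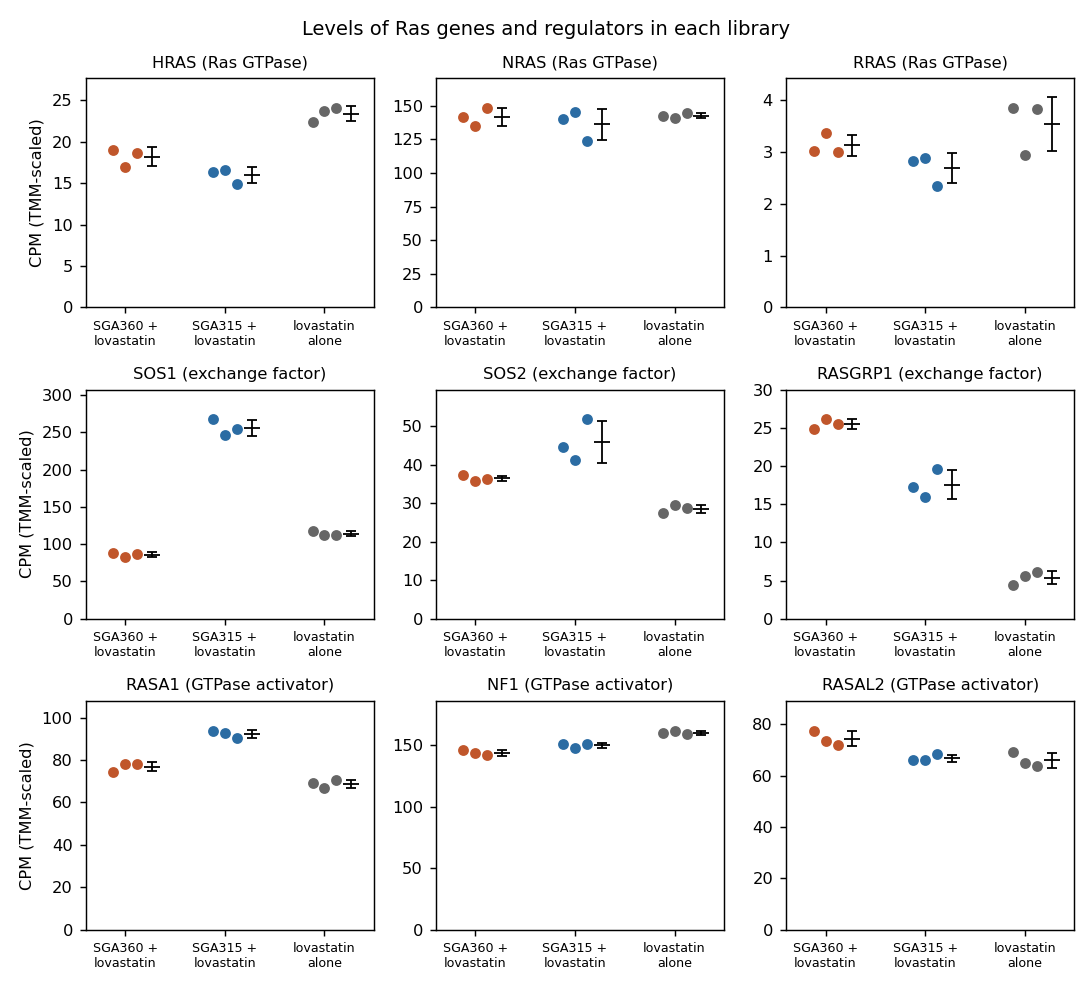
CPM of each gene (vertical axis, from 0) in the 3 libraries of each group (points), with the mean and SD beside them (bar). RASGRP1 is high in both ligand groups, SOS1 is highest with SGA315 (245.9 to 267.2 CPM), and NRAS overlaps in every comparison.

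HRAS, one of the classical Ras oncoproteins, had 19.0, 16.9 and 18.6 CPM with SGA360, 16.4, 16.6 and 14.8 CPM with SGA315 and 22.3, 23.7 and 24.0 CPM with lovastatin alone. Every library with lovastatin alone was above every ligand library, and the ligand groups did not overlap each other. The log2 fold change was −0.36 ± 0.071 with SGA360 (SE; adjusted p = 1.01e-05) and −0.55 ± 0.075 with SGA315 (adjusted p = 1.81e-09), 1.29-fold and 1.46-fold lower. HRAS overlaps LRRC56 in the RefSeq annotation of GRCh38.p14. LRRC56 held 427 counts over all libraries, against 2543 for HRAS, and its log2 fold change was −0.40 ± 0.17 with SGA360 (adjusted p = 0.0372) and −0.18 ± 0.17 with SGA315 (adjusted p = 0.342).

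NRAS, its close relative, had 141.9, 134.5 and 148.0 CPM with SGA360, 139.9, 144.9 and 123.4 CPM with SGA315 and 142.4, 140.5 and 144.4 CPM with lovastatin alone. The groups overlapped in each comparison, and no difference passed the test. The 95% interval of the log2 fold change was −0.09 to 0.06 with SGA360 (adjusted p = 0.749) and −0.14 to 0.01 with SGA315 (adjusted p = 0.126). SGA315 replicate 3, at 123.4 CPM, stood below the other 8 libraries. NRAS was called higher with SGA360 under scaling to library totals (0.10, adjusted p = 0.0185). With SGA315 it was called lower without SGA315 replicate 1 (−0.10, adjusted p = 0.0416), without SGA315 replicate 2 (−0.11, adjusted p = 0.0118), with RLE scaling (−0.08, adjusted p = 0.0448) and with no filter on low counts (−0.08, adjusted p = 0.0384). Without SGA315 replicate 3 its value with SGA315 was −0.0021 (adjusted p = 0.963). Over the 16 alternatives its adjusted p was 0.0185 to 0.888 with SGA360 and 0.0118 to 0.963 with SGA315.

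RRAS, a Ras relative linked to integrin adhesion, had the fewest counts of the 9 genes. Its level was 3.02, 3.36 and 2.99 CPM with SGA360, 2.83, 2.88 and 2.35 CPM with SGA315 and 3.84, 2.93 and 3.83 CPM with lovastatin alone. Lovastatin replicate 2 lay below every SGA360 library and above every SGA315 library, while the other lovastatin libraries lay above all ligand libraries. These values rest on 31 to 59 counts a library. The log2 fold change was −0.18 ± 0.17 with SGA360 (adjusted p = 0.353) and −0.40 ± 0.18 with SGA315 (adjusted p = 0.0408). The SGA315 call ended with DESeq2 (adjusted p = 0.114), with scaling to totals (adjusted p = 0.154), and without lovastatin replicate 1 (adjusted p = 0.115), lovastatin replicate 3 (adjusted p = 0.121) or SGA315 replicate 3 (adjusted p = 0.145). Over the alternatives its adjusted p was 0.016 to 0.154.

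SOS1 moved in opposite directions with the ligands. It encodes the main exchange factor that couples receptor tyrosine kinases to Ras. Its level was 88.4, 82.0 and 86.4 CPM with SGA360, 267.2, 245.9 and 254.5 CPM with SGA315 and 117.6, 112.2 and 111.9 CPM with lovastatin alone. None of the 3 groups overlapped another: SGA315 libraries were highest and SGA360 libraries lowest. With SGA360 SOS1 was 1.33-fold lower (log2 fold change −0.41 ± 0.039, adjusted p = 6.31e-15). With SGA315 it was 2.25-fold higher (1.17 ± 0.034, adjusted p = 3.36e-41), and 457 of the genes tested rose by more.

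SOS2, the paralogue of SOS1, was higher with both ligands. It had 37.2, 35.8 and 36.3 CPM with SGA360, 44.6, 41.1 and 51.7 CPM with SGA315 and 27.4, 29.4 and 28.8 CPM with lovastatin alone. The groups did not overlap, and SGA315 libraries were the most spread. The rise was 1.28-fold with SGA360 (log2 fold change 0.35 ± 0.062, adjusted p = 1.37e-06) and 1.6-fold with SGA315 (0.68 ± 0.061, adjusted p = 6.47e-16).

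The balance of both SOS genes does not depend on how libraries are scaled. Per kilobase of transcript, SOS1 stood at 1.57, 1.52 and 1.57 times SOS2 in SGA360 libraries, 3.96, 3.96 and 3.25 times in SGA315 libraries and 2.84, 2.52 and 2.57 times with lovastatin alone. The means were 1.55 ± 0.034, 3.72 ± 0.41 and 2.64 ± 0.17 in that order (SD, n = 3 each). The 3 groups did not overlap in this ratio.

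**Figure D2:**
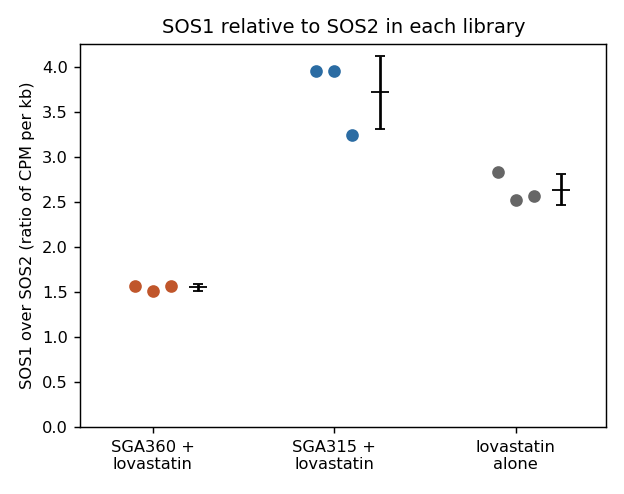
Ratio of SOS1 to SOS2, each as CPM per kilobase of transcript (vertical axis, from 0), in each library (points), with the mean and SD of each group (bar). SGA360 libraries lie at 1.52 to 1.57, SGA315 libraries at 3.25 to 3.96 and lovastatin libraries at 2.52 to 2.84.

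RASGRP1, a diacylglycerol-responsive exchange factor best known from T lymphocytes, had the largest rise of the 9 genes with either ligand. Its level was 24.9, 26.2 and 25.5 CPM with SGA360, 17.2, 15.9 and 19.6 CPM with SGA315 and 4.45, 5.56 and 6.16 CPM with lovastatin alone. In counts, lovastatin libraries held 66 to 95, against 324 to 451 with SGA360 and 227 to 262 with SGA315. SGA360 libraries were highest, and no group overlapped another. The rise was 4.72-fold with SGA360 (log2 fold change 2.24 ± 0.096, adjusted p = 3.7e-31) and 3.25-fold with SGA315 (1.70 ± 0.11, adjusted p = 5.39e-23). Of the genes tested, 29 rose by more with SGA360 and 137 with SGA315. The 3 RefSeq rows of RASGRP1 gave log2 ratios of 2.22 to 2.24 with SGA360 and 1.67 to 1.71 with SGA315. Their totals were 2170, 2161 and 2045 counts. Transcript rows of 1 gene can count the same reads, so this likeness adds no separate evidence. CD3E and PTPRC, which mark T lymphocytes and leukocytes in general, held 7 and 37 counts over the same libraries together. CD3D of the same leukocyte list held 32 counts, while CD68 and LYZ passed the filter. The part of such cells in the rise of RASGRP1 was not tested.

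The genes whose profile over the 9 libraries lay nearest to RASGRP1 were LAMP3, PCLO and ARRDC3. The measure was the root mean square difference of log2 CPM after each gene was centred on its own mean, and it was 0.17, 0.18 and 0.21 for these genes. LAMP3 averaged 39.2 ± 0.965 CPM with SGA360, 28.99 ± 1.69 CPM with SGA315 and 8.73 ± 0.796 CPM with lovastatin alone. PCLO averaged 28.9 ± 0.634, 24.2 ± 1.86 and 5.67 ± 0.745 CPM in the same groups, and ARRDC3 158 ± 2.33, 133 ± 5.67 and 44.1 ± 3.63 CPM (SD, n = 3 each). They were picked for this likeness, so it is a description.

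**Figure D3:**
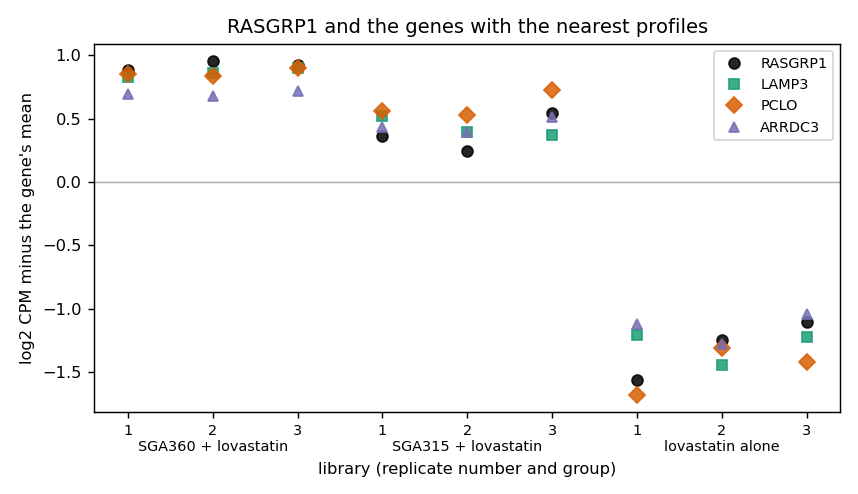
Log2 CPM minus the gene's own mean (vertical axis) for RASGRP1 and the 3 genes with the nearest profiles, in each library (horizontal axis, by group and replicate number). All 4 genes are above their mean in the 6 ligand libraries and below it in the 3 lovastatin libraries.

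RASA1, which encodes p120 RasGAP, had 74.4, 78.0 and 78.0 CPM with SGA360, 93.8, 92.7 and 90.2 CPM with SGA315 and 69.0, 66.9 and 70.7 CPM with lovastatin alone. The groups did not overlap, and SGA315 libraries were highest. The rise was 1.11-fold with SGA360 (log2 fold change 0.15 ± 0.041, adjusted p = 0.000754) and 1.34-fold with SGA315 (0.42 ± 0.04, adjusted p = 8.11e-15). RASA1 overlaps CCNH in the RefSeq annotation, so its value is uncertain where strands were not separated. CCNH, a cyclin gene, held 5713 counts against 10513 for RASA1. It too was higher with SGA360 (0.26 ± 0.05, adjusted p = 8.88e-06) and with SGA315 (0.17 ± 0.052, adjusted p = 0.00284). CCNH changed more with SGA360 and RASA1 more with SGA315, and CCNH was not called between the ligands (0.09 ± 0.049, adjusted p = 0.149).

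NF1, which encodes the Ras GTPase activator neurofibromin, was slightly lower with both ligands. It had 146.5, 143.5 and 141.8 CPM with SGA360, 150.7, 147.7 and 151.0 CPM with SGA315 and 159.9, 161.9 and 158.8 CPM with lovastatin alone. Every ligand library was below every lovastatin library. The log2 fold change was −0.15 ± 0.032 with SGA360 (adjusted p = 2.57e-05) and −0.10 ± 0.032 with SGA315 (adjusted p = 0.00608). With scaling to totals the SGA360 call ended (−0.04, adjusted p = 0.278) and the SGA315 value turned to 0.02 (adjusted p = 0.489). Over the alternatives the adjusted p was 3.25e-06 to 0.278 and 0.00113 to 0.489. The genome holds pseudogene copies of NF1, and how shared reads were counted is not given in the sources used here.

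RASAL2, a GTPase activator of the SynGAP group, had 77.6, 73.7 and 71.9 CPM with SGA360, 66.0, 66.2 and 68.4 CPM with SGA315 and 69.4, 65.0 and 63.8 CPM with lovastatin alone. SGA360 libraries lay above the rest, while SGA315 and lovastatin libraries overlapped. The log2 fold change was 0.17 ± 0.042 with SGA360 (adjusted p = 0.00026). With SGA315 it was 0.02, with a 95% interval of −0.07 to 0.10 (adjusted p = 0.737). Under scaling to totals the SGA315 value was called higher (0.14, adjusted p = 0.00419; 0.00419 to 1 over the alternatives).

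Levels of different genes were compared only per kilobase, with the length of the GENCODE 29 transcript paired with each row. With lovastatin alone, NRAS stood highest at 32.0 ± 0.438 CPM per kb. HRAS (18.9 ± 0.747) and RASA1 (18.4 ± 0.498) followed within their spread, then RASAL2 (15.1 ± 0.673), SOS1 (13.7 ± 0.389), NF1 (12.9 ± 0.126), SOS2 (5.19 ± 0.183), RRAS (3.38 ± 0.5) and RASGRP1 (1.07 ± 0.174 CPM per kb). With SGA315, SOS1 (30.8 ± 1.29) and NRAS (30.6 ± 2.52) were level within their spread. RASGRP1 moved above RRAS in both ligand groups, at 5.08 ± 0.13 CPM per kb with SGA360 and 3.5 ± 0.372 with SGA315, against 2.99 ± 0.2 and 2.57 ± 0.281 for RRAS. The place of RASAL2 is uncertain, since its rows were paired with transcripts of 4378 and 14453 nt.

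SGA360 and SGA315 were set directly against each other at the same dose and time for all 9 genes. HRAS, RASGRP1 and RASAL2 were higher and SOS1, SOS2 and RASA1 lower with SGA360 than with SGA315. These 6 of 9 calls stand beside 42.7% of all tested genes (21.8% higher, 20.9% lower). The ligand groups did not overlap for 8 of the 9, against 49.2% of all genes tested. The median log2 fold change of the 9 genes was 0.05, and −0.01 over all genes tested. SOS1 differed most: it was 2.99-fold lower with SGA360, a log2 fold change of −1.58 ± 0.035 (95% interval −1.65 to −1.51, adjusted p = 6.38e-47). Of 14677 genes, 34 were lower by more. RASGRP1 was 1.45-fold higher with SGA360 (0.54 ± 0.074, 95% interval 0.39 to 0.69, adjusted p = 8.13e-09). SOS2 was 1.254-fold lower (−0.33 ± 0.057, adjusted p = 2.28e-06) and RASA1 1.2-fold lower (−0.27 ± 0.039, adjusted p = 3.89e-08). RASAL2 was 1.12-fold higher (0.16 ± 0.042, adjusted p = 0.00166).

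The HRAS call between the ligands was marginal (log2 fold change 0.18, 95% interval 0.03 to 0.34, adjusted p = 0.0499). It ended under 11 of 16 alternatives, which included leaving out any library but SGA360 replicate 2 and SGA315 replicate 2, and its adjusted p was 0.024 to 0.2 over all of them. For the other genes the test made no call: the 95% interval was −0.03 to 0.13 for NRAS (adjusted p = 0.299), −0.14 to 0.58 for RRAS (adjusted p = 0.341) and −0.12 to 0.01 for NF1 (adjusted p = 0.151). NRAS was called without SGA315 replicate 2 (0.10, adjusted p = 0.0471) and was −0.01 without SGA315 replicate 3 (adjusted p = 0.803). Its adjusted p over all alternatives was 0.0471 to 0.803.

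**Figure D4:**
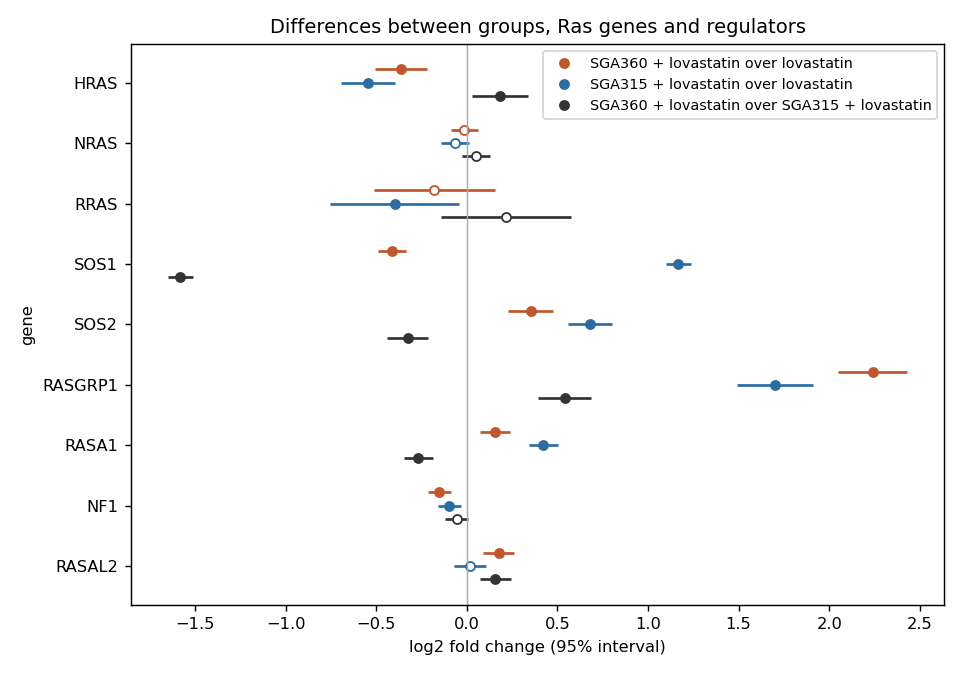
Log2 fold change (horizontal axis) with its 95% interval for each gene in the 3 comparisons, filled where the adjusted p was under 0.05 and open where it was not. SOS1 lies below 0 with SGA360 (−0.41) and above 0 with SGA315 (1.17), and RASGRP1 has the largest rises (2.24 and 1.70).

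Other genes of the pathway were grouped by their known roles, with earlier results of these data known. Beside the counts of each list stand the shares over all genes tested. With SGA360 31.4% were called higher and 31.4% lower, and with SGA315 36% and 33.2%. Of 25 other Ras family GTPases 17 were tested. With SGA360 5 were higher and 3 lower (median log2 fold change −0.02), and with SGA315 5 were higher and 6 lower (median −0.07), against 0.02 and 0.04 over all genes tested. These splits moved with scaling to totals, to 9 and 2 with SGA360 and 7 and 6 with SGA315. MRAS, a partner of the scaffold protein SHOC2, averaged 22.9 ± 1.33 CPM with SGA315 and 10.6 ± 0.422 CPM with lovastatin alone (log2 fold change 1.11 ± 0.083, adjusted p = 2.73e-19). With SGA360 it was 11.0 ± 0.96 CPM (0.04 ± 0.095, adjusted p = 0.711), and the ligands differed (−1.07 ± 0.081, adjusted p = 4.19e-18). RASD1, a dexamethasone-induced Ras relative, was higher with SGA360 (0.45 ± 0.059, adjusted p = 1.04e-09) and with SGA315 (0.65 ± 0.059, adjusted p = 1.3e-15). RAP2B and RALB were lower with both ligands. RAP2B was −0.35 ± 0.047 with SGA360 (adjusted p = 1.56e-09) and −0.50 ± 0.048 with SGA315 (adjusted p = 1.48e-14). RALB was −0.27 ± 0.039 with SGA360 (adjusted p = 1.13e-08) and −0.32 ± 0.04 with SGA315 (adjusted p = 1.18e-10).

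Of 16 other exchange factors and adaptors 14 were tested. With SGA360 4 were higher and 9 lower (median −0.14), and with SGA315 3 were higher and 8 lower (median −0.19). With scaling to totals these were 4 and 2, and 5 and 5. RASGRP3, a relative of RASGRP1, averaged 10.2 ± 0.642 CPM with SGA360, 7.41 ± 0.488 CPM with SGA315 and 4.73 ± 0.194 CPM with lovastatin alone. Its log2 fold change was 1.11 ± 0.12 with SGA360 (adjusted p = 4.32e-13) and 0.65 ± 0.13 with SGA315 (adjusted p = 7.55e-06). The docking protein gene GAB2 averaged 105.7 ± 2.52 CPM with SGA360, 95.7 ± 5.91 CPM with SGA315 and 62.9 ± 3.76 CPM with lovastatin alone, a rise of 0.75 ± 0.042 (adjusted p = 6.11e-25) and 0.60 ± 0.044 (adjusted p = 6.65e-20). SHC1, an adaptor that links receptors to GRB2 and SOS, was lower with SGA360 (−0.36 ± 0.036, adjusted p = 9.6e-14) and with SGA315 (−0.49 ± 0.037, adjusted p = 4.97e-19).

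Of 7 other GTPase activators 5 were tested, with 0 higher and 2 lower with SGA360 (median −0.23) and 1 and 1 with SGA315 (median 0.28). With scaling to totals the splits were 1 and 1, and 2 and 1. RASA2 was lower with SGA360 (−0.39 ± 0.061, adjusted p = 1.05e-07) and with SGA315 (−0.34 ± 0.062, adjusted p = 1.29e-06). RASA3 averaged 10.3 ± 0.857 CPM with SGA360, 14.6 ± 0.533 CPM with SGA315 and 12.03 ± 1.35 CPM with lovastatin alone. It overlapped between SGA360 and lovastatin libraries. It was lower with SGA360 (−0.23 ± 0.096, adjusted p = 0.0331; not called with scaling to totals, adjusted p = 0.291) and higher with SGA315 (0.28 ± 0.091, adjusted p = 0.00506), and the ligands differed (−0.51 ± 0.092, adjusted p = 5.18e-06). RASA4 had log2 fold changes of 0.37 and 0.50 that were not called (adjusted p = 0.175 and 0.062), and its values are uncertain, since a near-identical copy of the gene exists.

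Of 18 effectors and ERK pathway kinases 17 were tested. With SGA360 4 were higher and 4 lower (median −0.01), and with SGA315 5 were higher and 6 lower (median −0.01). With scaling to totals these were 10 and 2, and 9 and 2. RGL3, which activates Ral GTPases downstream of Ras, was higher with SGA360 (0.71 ± 0.067, adjusted p = 1.04e-14) and with SGA315 (0.64 ± 0.069, adjusted p = 7.14e-13). Its relative RGL1 averaged 69.5 ± 3.06 CPM with SGA360, 43.6 ± 1.06 CPM with SGA315 and 51.0 ± 0.522 CPM with lovastatin alone, and the ligands differed by 0.68 ± 0.046 (adjusted p = 2.61e-20). RALGDS, another activator of Ral, was lower with SGA360 (−0.29 ± 0.061, adjusted p = 3.32e-05). With SGA315 it was also called lower (−0.15 ± 0.061, adjusted p = 0.0284), though the libraries overlapped. MAP2K1, which encodes the ERK-activating kinase MEK1, was lower with SGA360 (−0.18 ± 0.041, adjusted p = 0.00014) and with SGA315 (−0.42 ± 0.042, adjusted p = 6.36e-14). KSR2, a scaffold of the same cascade, was higher with SGA315 (1.22 ± 0.19, adjusted p = 3.17e-08). With SGA360 KSR2 was not called (0.36 ± 0.21, adjusted p = 0.133).

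Of 14 genes of Ras lipid processing, trafficking and turnover, all were tested. With SGA360 2 were higher and 8 lower (median −0.15), and with SGA315 3 were higher and 6 lower (median −0.16). With scaling to totals both splits were near even, 5 and 4, and 5 and 5. ICMT, the methyltransferase of the prenylated end of Ras, averaged 114 ± 2.58 CPM with SGA360, 99.1 ± 3.57 CPM with SGA315 and 147.7 ± 3.19 CPM with lovastatin alone. Its log2 fold change was −0.37 ± 0.034 with SGA360 (adjusted p = 4.28e-15) and −0.58 ± 0.035 with SGA315 (adjusted p = 2.82e-23). LYPLA2, a thioesterase gene, was lower with SGA360 (−0.53 ± 0.046, adjusted p = 3e-16) and with SGA315 (−0.49 ± 0.047, adjusted p = 1.25e-14). LYPLA1, which encodes a thioesterase that removes palmitate, was lower with SGA360 (−0.17 ± 0.037, adjusted p = 5.12e-05) and with SGA315 (−0.38 ± 0.038, adjusted p = 6.75e-14). FNTB, the beta subunit of farnesyltransferase, was lower with SGA360 (−0.41 ± 0.061, adjusted p = 2.49e-08) and with SGA315 (−0.19 ± 0.06, adjusted p = 0.00412).

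Set directly against SGA315 cells, SGA360 cells had 6 higher and 4 lower of the 17 other GTPases, 6 and 1 of the 14 exchange factors and adaptors, 0 and 1 of the 5 GTPase activators, 4 and 4 of the 17 effectors and kinases, and 4 and 2 of the 14 lipid processing genes. Over all genes tested 21.8% were called higher and 20.9% lower in this comparison. RASGRP3, like RASGRP1, was higher with SGA360 than with SGA315 (0.46 ± 0.1, adjusted p = 0.000218).

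**Figure D5:**
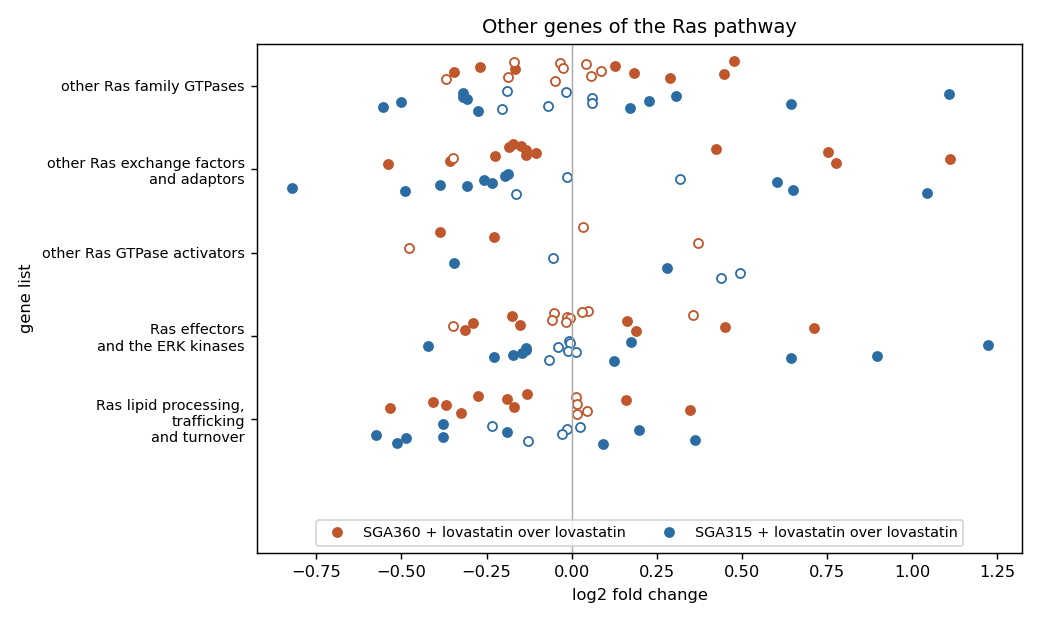
Log2 fold change (horizontal axis) of each tested gene of 5 further Ras pathway lists (vertical axis), with SGA360 above and SGA315 below in each list, filled where the adjusted p was under 0.05 and open where it was not. Each list holds genes on both sides of 0, in both comparisons.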

How the data were processed

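Per the file headers and the values, the authors deposited raw read counts per RefSeq transcript row, 1 column per library. The submitters' processing notes list TopHat2 2.0.13, HTSeq 0.5.4p3 and hg19 but no roles. Annotation release and strand setting were not given in the sources used here, so overlapping genes may share reads. Of 65325 rows, 64346 were named from the RefSeq table of GRCh38.p14 and 544 from GENCODE 29. The 435 unnamed rows held 0.256% of counts and stayed out. From 23 sets of genes with identical counts (total of at least 100) 1 gene each was kept and 43 were dropped, which left 27676 genes.

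The test was edgeR 4.0.16 under R 4.3.3 (quasi-likelihood F test, TMM, filterByExpr with a minimum count of 10 and total of 15, all 9 libraries in 1 fit, no covariate). Benjamini-Hochberg adjustment ran over 14677 genes. Levels are TMM-scaled CPM, mean ± SD. Changes are log2 fold changes ± SE with 95% intervals from the fit. A count of 0 allows up to 3 counts, or 0.178 to 0.243 CPM, for counting error only. The test was checked on simulated counts in which few genes changed, in the SGA360 group only, with the same spread for every gene. Many more genes were called in these data, so that check does not bear on the choice of scaling.

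The members and lists were chosen with earlier results of these data known. All 9 members are named, with up to 3 tested genes of each list by the smallest p in each ligand comparison and the 3 genes nearest to RASGRP1. Genes beyond these are CYP1A1, the cell type markers named, CCNH and LRRC56, which were added after their values were seen. Some genes that the rule takes are not reported here. Alternatives were RLE scaling, scaling to totals, DESeq2 1.42.0, no filter, the compared groups only, a replicate block, the lowest accession per gene, and leaving out each library.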

Additional observations from a re-analysis of the deposited data

How the results depend on the processing

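Over 16 alternatives the number of the 9 genes called stayed within 1.5 times that reported, at 7 with SGA360, 6 to 8 with SGA315 and 5 to 7 between the ligands. Of 27 differences, 19 kept their direction and their side of the threshold under every alternative, among them each difference of SOS1, SOS2, RASGRP1 and RASA1. For SOS1, SOS2, RASGRP1 and RASA1 the lowest accession was the row already used, so that alternative could not change their own counts. Scaling to totals moved the median of all genes to 0.14 from 0.02 with SGA360 and to 0.16 from 0.04 with SGA315. Small changes below this shift turned round: under scaling to totals, NRAS was 0.10 with SGA360 and 0.057 with SGA315, and NF1 was 0.025 with SGA315. RASAL2 with SGA315 was −0.0023 with RLE scaling, −0.0018 with DESeq2, −0.0011 with no filter and −0.023 without lovastatin replicate 3, with −0.023 to 0.039 over the values without 1 library. NRAS was 0.0076 with SGA360 without SGA360 replicate 2 (−0.045 to 0.0076 over the values without 1 library), and −0.013 between the ligands without SGA315 replicate 3 (−0.013 to 0.096). The cause was not tested. Replicate numbers are not said to pair libraries, and the correlation of same-numbered libraries' deviations was 0.037 to 0.17, under 0.1 for some pairs. With a replicate block 7, 7 and 6 of the 9 genes were called, and 9337, 10271 and 6439 of all genes. Depth limits RRAS most.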
